A study of Rattus norvegicus with 6 samples.

Results

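Collagen genes were identified on the arrays of a rat myocardial infarction series by the symbol of the gene that each probe's RefSeq accession maps to, taking every symbol made of Col, a number, the letter a and a number. This gave 15 collagen genes, each with 1 probe printed as 1 spot, among 13876 named genes with a probe. The gene table used for naming lists 44 collagen genes, so 29 were not analysed here, among them Col1a1, Col4a2, Col5a2, Col6a1, Col6a2, Col6a3, Col15a1 and Col18a1. The border-zone group held 3 male Wistar rats with the left anterior descending coronary artery ligated, in which muscle bordering the infarct, delineated with TTC and EB double staining, was taken after 6 h (arrays M17, M24 and M25). The sham group held 3 sham-operated male Wistar rats, with myocardium of a control zone taken at the same 6 h (arrays C4, C5 and C6). Total RNA prepared with TRIzol was labelled with Cy3 and hybridised to 1-colour Agilent arrays, 1 array per replicate code in the labels. Each code was taken as 1 animal, which was not tested. The question is how transcripts of the border zone compare with those of sham muscle. An age was not among the labels used here, and the tissue was bulk muscle, so that fewer cells of a type and less RNA per cell cannot be told apart.

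Collagens are secreted or membrane proteins built from chains that wind into a triple helix. Fibrillar collagens form the tensile network between heart muscle cells and are made mainly by fibroblasts, while network-forming collagens lie in basement membranes and vessel walls, and fibril-associated collagens coat the fibrils. In the infarcted heart, early breakdown of the collagen network by proteases is followed over days to weeks by deposition of a collagen scar.

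Sequences upstream of the start are shown for 5 of the 7 genes that passed the test (adjusted p below 0.05), since these genes moved in the same comparison. They are the 250 bases before the gene start in the RefSeq table of assembly GRCr8, read 5′ to 3′ on the strand of the gene. That table matched 11 of the 15 collagen genes. Capitals mark exact matches to 3 motifs, each searched on both strands. The first is the CCAAT box, searched by those letters and their reverse complement. The next is the TATA box, searched as TATAAA in the same manner. The last is the GC box, for which the letters GGGCGG and their reverse complement were searched.
Col1a2, chr4:33518307-33518556, plus strand: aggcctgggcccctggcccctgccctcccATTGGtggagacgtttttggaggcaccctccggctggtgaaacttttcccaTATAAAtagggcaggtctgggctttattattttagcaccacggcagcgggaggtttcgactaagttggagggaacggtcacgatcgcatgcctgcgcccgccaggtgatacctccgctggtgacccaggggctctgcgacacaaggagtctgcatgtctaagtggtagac
Col5a1, chr3:31606630-31606879, plus strand: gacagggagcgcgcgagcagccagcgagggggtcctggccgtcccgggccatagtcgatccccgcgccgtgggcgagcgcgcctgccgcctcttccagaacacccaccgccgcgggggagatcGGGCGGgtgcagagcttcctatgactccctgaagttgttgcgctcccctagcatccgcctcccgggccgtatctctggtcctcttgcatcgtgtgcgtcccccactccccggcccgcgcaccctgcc
Col5a3, chr8:27625949-27626198, minus strand: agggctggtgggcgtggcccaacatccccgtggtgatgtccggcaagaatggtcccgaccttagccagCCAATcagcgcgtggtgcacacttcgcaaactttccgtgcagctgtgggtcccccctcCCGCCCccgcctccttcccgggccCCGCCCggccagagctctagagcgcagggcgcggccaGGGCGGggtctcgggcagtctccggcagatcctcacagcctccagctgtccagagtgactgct
Col8a1, chr11:56246532-56246781, plus strand: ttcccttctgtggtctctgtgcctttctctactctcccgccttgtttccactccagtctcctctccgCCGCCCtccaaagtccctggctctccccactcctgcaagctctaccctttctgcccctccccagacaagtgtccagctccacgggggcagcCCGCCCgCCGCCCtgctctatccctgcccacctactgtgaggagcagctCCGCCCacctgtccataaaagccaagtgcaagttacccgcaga
Col7a1, chr8:118483114-118483363, plus strand: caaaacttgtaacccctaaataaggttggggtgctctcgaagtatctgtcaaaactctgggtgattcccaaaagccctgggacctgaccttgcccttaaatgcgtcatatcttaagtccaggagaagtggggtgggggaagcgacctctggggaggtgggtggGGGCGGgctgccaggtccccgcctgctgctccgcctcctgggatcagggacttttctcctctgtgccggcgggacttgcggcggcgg
Col1a2 held 1 CCAAT box and 1 TATA box, and Col5a3 held 1 CCAAT box and 3 GC boxes. Col8a1 held 4 GC boxes, while Col5a1 and Col7a1 held 1 each, so the gene that rose and 3 of the genes that fell shared this motif. Among the 11 matched collagen genes, 3 held a CCAAT box, 2 a TATA box and 7 a GC box, against 34.0%, 12.9% and 30.5% of all 33469 promoters of the table. No motif overlapped another in the 5 sequences shown, and a match describes these letters only.

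The level used throughout is the log2 processed signal minus the 75th percentile of the array, so that 0 stands for a probe at that percentile, and levels of different probes are not compared. Well above background were 74.3% to 78.3% of probes on the border-zone arrays and 73.7% on C4, but 51.0% on C5 and 52.4% on C6. By the file headers, M17, M24, M25 and C4 were scanned together, and C5 and C6 each in a separate scan, so a fit with scan as a block equals the border zone against C4 alone and holds no spread between sham animals. Summed levels of 13 central nervous tissue markers were 1.85 to 2.14 times the 75th-percentile signal on the border-zone arrays and 2.66 on C4, against 16.5 on C5 and 20.2 on C6, so sham arrays C5 and C6 go against a pure myocardium label. All 10 cardiomyocyte markers were well above background on each of the 6 arrays, and none of the 10 passed the test or had an unadjusted p below 0.05. Of 572 tested probes more than 2-fold apart between M17 and M24, 97.6% had M25 between them, as did 13 of the 15 collagen genes, and whether M25 is a separate animal was not tested. Each collagen call is therefore given against C4 alone and, where the call is lost, without M25.

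In the fit of all 6 arrays, transcripts of collagen types I, III, V and XIV were lower in the infarct border zone than in sham at 6 h. Type I was measured by Col1a2 alone. Without M25, only Col14a1 kept the call, and sham arrays C5 and C6 are those with the central nervous markers. Of the 15 genes, 6 were lower at an adjusted p below 0.05 (limma, Benjamini-Hochberg over 17930 probes tested), where 10.3% of all tested probes were lower. These were Col1a2, Col3a1, Col5a1, Col5a3, Col14a1 and Col8a1. Col7a1 alone was higher, where 9.01% of all tested probes were higher, and 8 collagen genes did not pass. Log2 fold changes were below 0 for 12 of the 15 genes, with a median of -1.02, beside a median of -0.03 over all tested probes. The 3 border-zone values lay wholly outside the 3 sham values for 10 of the 15 genes, where this held for 43.7% of all tested probes. In 9 of these 10 the border zone was the lower group, which held for 22.8% of all tested probes.

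**Figure D1:**
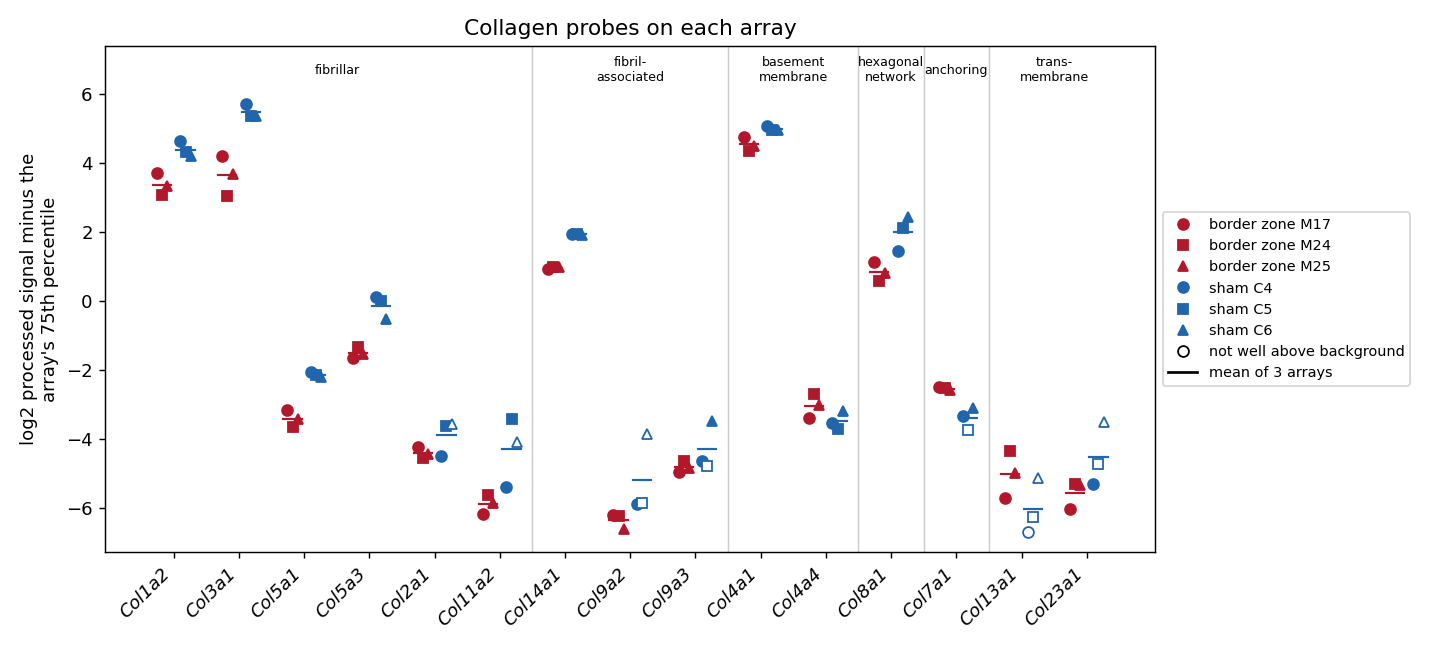
Level of each collagen probe (log2 processed signal minus the array's 75th percentile) on the 3 border-zone arrays (red, left of each pair) and the 3 sham arrays (blue, right), grouped by collagen class, with bars at the group means and open symbols where the probe was not well above background. Col3a1 lay between 3.05 and 4.20 in the border zone and between 5.37 and 5.71 in sham, while open symbols are found only on sham arrays, for 7 of the dimmer probes.

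Of the fibrillar collagens, 6 had a probe, of which 4 fell and none rose. Col1a2 encodes the second chain type of type I collagen, the main tensile collagen of the heart. Its level was 3.70, 3.08 and 3.33 on M17, M24 and M25, against 4.65, 4.32 and 4.19 on C4, C5 and C6. The brightest border-zone array thus lay below the dimmest sham array. Col1a2 fell by 1.02 ± 0.21 on the log2 scale (SE, n = 3 arrays per group throughout), an adjusted p of 0.0254 and a fold of 2.03. The call was lost without M24 (-0.88, adjusted p = 0.0864), without M25 (-1.001, adjusted p = 0.122) and without C5 (-1.06, adjusted p = 0.0735). Against C4 alone the log2 fold change was -1.28 with an adjusted p of 0.0552, and the call was also lost with median scaling (-0.83, adjusted p = 0.0702) and with no filter on dim probes (adjusted p = 0.0560).

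Col3a1 encodes the chain of type III collagen, which forms finer fibrils together with type I. Its level was 4.20, 3.05 and 3.69 on M17, M24 and M25, against 5.71, 5.37 and 5.37 on C4, C5 and C6. The groups did not overlap, and M17 and M24 differed from each other by more than the whole sham range. Col3a1 fell by 1.84 ± 0.31 on the log2 scale, or 3.57-fold, with an adjusted p of 0.0145. This was the largest fall among the collagen genes in the pooled fit. It was -1.86 with an adjusted p of 0.0773 without M25, and -2.07 with an adjusted p of 0.0649 against C4 alone, while the other 5 fits that left out 1 array kept the call.

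Type V collagen, which joins type I in mixed fibrils and takes part in starting them, had 2 chains with a probe, and both fell. Col5a1 had levels of -3.17, -3.65 and -3.44 on M17, M24 and M25, against -2.06, -2.16 and -2.20 on C4, C5 and C6. The sham arrays lay within a narrow band and all border-zone arrays were below it. Col5a1 fell by 1.28 ± 0.15 on the log2 scale, or 2.43-fold, with an adjusted p of 0.00581. Against C4 alone it was -1.36 with an adjusted p of 0.0351, and without M25 it was -1.27 with an adjusted p of 0.0518.

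Col5a3, a type V chain of more restricted distribution, had levels of -1.66, -1.33 and -1.54 on M17, M24 and M25, against 0.10, 0.01 and -0.53 on C4, C5 and C6. C6 was the lowest sham array and still lay above every border-zone array. Col5a3 fell by 1.37 ± 0.20 on the log2 scale, or 2.58-fold, with an adjusted p of 0.0108. The change against C4 alone was -1.61 with an adjusted p of 0.0184. The call was lost without M17 (-1.29, adjusted p = 0.0511) and without M25 (-1.35, adjusted p = 0.0715).

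The fibril-associated Col14a1, whose product binds the surface of type I fibrils and bears on their packing, gave the tightest values of the 15 genes. Its level was 0.92, 0.98 and 0.97 on M17, M24 and M25, against 1.93, 1.95 and 1.92 on C4, C5 and C6. The SD was 0.03 among border-zone arrays and 0.02 among sham arrays, far below the gap between the groups. Col14a1 fell by 0.97 ± 0.10 on the log2 scale, or 1.96-fold, with an adjusted p of 0.00386. The change against C4 alone was also -0.97 (adjusted p = 0.0175). Each of the 6 fits that left out 1 array kept the call, with log2 fold changes between -0.99 and -0.96.

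Col8a1 encodes a short-chain collagen of hexagonal networks that is made in vessel walls. Its level was 1.13, 0.57 and 0.82 on M17, M24 and M25, against 1.44, 2.12 and 2.43 on C4, C5 and C6. The groups did not overlap, but C4 lay closer to M17 than to either of the other sham arrays. Col8a1 fell by 1.16 ± 0.29 on the log2 scale, or 2.23-fold, with an adjusted p of 0.0430. The change against C4 alone was -0.60 with an adjusted p of 0.174, and the adjusted p was 0.0510 with normexp background correction and 0.0818 with no filter on dim probes. The call was kept without C4 (-1.44, adjusted p = 0.0067) and lost without each other array, at -1.31 without M17, -1.02 without M24, -1.15 without M25, -1.10 without C5 and -0.94 without C6 (adjusted p of 0.0869 to 0.154). C5 and C6, on which Col8a1 was highest, are the arrays with the central nervous markers, and the part of those markers in this result was not tested.

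Col7a1, the chain of the anchoring fibrils that fasten skin epithelium to the tissue beneath it, was the collagen gene that rose. Its level was -2.51, -2.53 and -2.60 on M17, M24 and M25, against -3.35, -3.74 and -3.11 on C4, C5 and C6. The border-zone arrays were close together and above all sham arrays. C5 was not well above background, so the probe entered the test through the border zone alone. Col7a1 rose by 0.86 ± 0.18 on the log2 scale, or 1.81-fold, with an adjusted p of 0.0279, and by 0.81 against C4 alone (adjusted p = 0.0230). The call was lost without M17 (0.84, adjusted p = 0.0985), M24 (0.85, adjusted p = 0.100), M25 (0.88, adjusted p = 0.122) or C5 (0.68, adjusted p = 0.0530). With normexp background correction the change was 0.08 with an adjusted p of 0.808. That setting also added an offset of 50 to the signals, and the parts of offset and background method were not told apart. With no filter on dim probes the adjusted p was 0.0611.

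**Figure D2:**
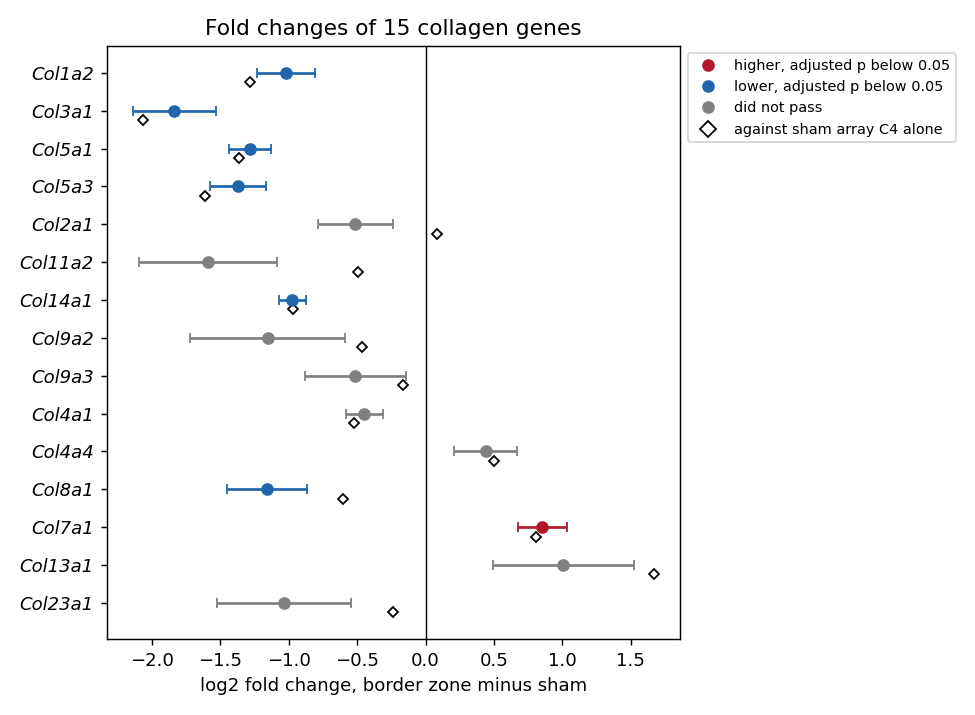
Log2 fold change of each collagen gene, border zone minus sham (filled points, with bars of 1 SE from the limma fit, n = 3 arrays per group), and the change against sham array C4 alone (open diamonds, no error shown). Blue points mark the 6 genes that fell, red marks Col7a1 and grey marks the 8 that did not pass; for Col11a2 the diamond lies at -0.49 and the point at -1.59.

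Basement membrane collagens had 2 genes with a probe and neither passed. Col4a1 encodes a main chain of the basement membrane around muscle cells and capillaries. Its level was 4.75, 4.36 and 4.51 on M17, M24 and M25, against 5.06, 4.95 and 4.95 on C4, C5 and C6. The groups did not overlap, and the log2 fold change was -0.45 ± 0.14 with an adjusted p of 0.0714 in the pooled fit. It was -0.52 against C4 alone (adjusted p = 0.134), -0.62 with quantile normalization (adjusted p = 0.0242) and -0.26 with median scaling (adjusted p = 0.352). Col4a4, a chain known from the kidney filtration membrane, had a log2 fold change of 0.44 ± 0.23 with an adjusted p of 0.229, with overlapping groups, and -0.26 with normexp background correction.

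The remaining 6 genes gave dim signals and none passed. They were the cartilage collagens Col2a1, Col9a2, Col9a3 and Col11a2 and the membrane-spanning collagens Col13a1 and Col23a1. Each border-zone array gave well-above-background signals for all 6, but each of these probes missed this on at least 1 sham array. The lowest level called well above background was -7.41 to -7.22 on the border-zone arrays, against -6.98 on C4, -4.49 on C5 and -3.98 on C6. Background thus sits higher on C5 and C6 on the normalized scale. Of the 15 collagen probes, 14 were well above background on C4, 10 on C5 and 10 on C6, and 8 on all 3 sham arrays.

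Col11a2, a chain of cartilage type XI collagen, had the largest change among the genes that did not pass. Its level was -6.18, -5.63 and -5.88 on M17, M24 and M25, against -5.40, -3.41 and -4.10 on C4, C5 and C6. C5 and C6 stood apart from C4, and the log2 fold change of -1.59 ± 0.51 (adjusted p = 0.0783) became -0.49 against C4 alone (adjusted p = 0.232) and -2.14 without C4 (adjusted p = 0.00473). Col9a2 had levels of -6.21, -6.26 and -6.63 in the border zone, against -5.90, -5.86 and -3.88 in sham, where only C4 was well above background, and its log2 fold change was -1.16 ± 0.57 (adjusted p = 0.200). Both genes kept their groups apart without passing, with C6 or C5 far from C4. Col2a1 had a log2 fold change of -0.51 ± 0.28 (adjusted p = 0.234), 0.085 against C4 alone and -0.81 without C4 (adjusted p = 0.00859).

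Col9a3 had a log2 fold change of -0.51 ± 0.37 with an adjusted p of 0.355, and -0.16 against C4 alone. Col23a1 had a log2 fold change of -1.04 ± 0.49 with an adjusted p of 0.186, and -0.24 against C4 alone. Without C6, the highest sham array for both, the changes were -0.09 for Col9a3 and -0.53 for Col23a1, while Col11a2 was at -1.49 without C6 and -1.14 without C5. Col13a1 was not well above background on any sham array. Its level was -5.73, -4.36 and -5.00 on M17, M24 and M25, against -6.70, -6.28 and -5.13 on C4, C5 and C6. The fold was 1.02 with dim sham values raised to the lowest signal called well above background. The fitted change had an adjusted p of 0.214 and was -0.42 with normexp background correction. Of 7 cartilage and bone markers with a probe, 2 were well above background on each border-zone array, 2 on C4 and none on C5 or C6, where the defining markers Acan and Matn1 were not well above background on any array.

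Differences between collagen genes on the same array were compared between the groups for 4 pairs, which asks whether 2 genes changed by unequal amounts. Col3a1 minus Col1a2 was 0.50, -0.03 and 0.36 on M17, M24 and M25, against 1.06, 1.05 and 1.17 on C4, C5 and C6, a difference between the group means of -0.82. For Col3a1 minus Col4a1 that difference was -1.39, and for Col1a2 minus Col4a1 it was -0.57, again with no overlap between the groups. For the type V chains, Col5a3 minus Col5a1, it was -0.09 with overlapping groups (exact permutation test, two-sided, p = 0.9). In the same exact test, each of the first 3 pairs reached p = 0.1, the smallest that 3 against 3 arrays can give, and 0.133 after Benjamini-Hochberg adjustment over the 4 pairs, so none can pass 0.05. These within-array differences do not depend on the scaling between arrays. The first 3 pairs are made from the same genes, so they are not separate results.

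The count of collagen genes that fell depended on which arrays entered. With C4 as the only sham array, Col5a1, Col5a3 and Col14a1 fell, 3 of 15 beside 7.5% of all tested probes, and Col7a1 rose, beside 8.43% of all tested probes. In that fit the median log2 fold change of the 15 genes was -0.49. Without M25, Col14a1 alone fell, beside 1.24% of all tested probes. With both C5 and C6 set aside by the scan block and M25 left out, no collagen gene passed in limma. Col1a2, Col3a1, Col5a1, Col5a3, Col14a1 and Col8a1 stayed below 0 in each of the 17 other settings tried. The groups of these genes did not overlap, so fits that left out arrays could not turn the sign. Settings that changed only the filter, the eBayes trend or the averaging of probes repeat the same estimates. The constant sign therefore adds little to the reported fit.

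**Figure D3:**
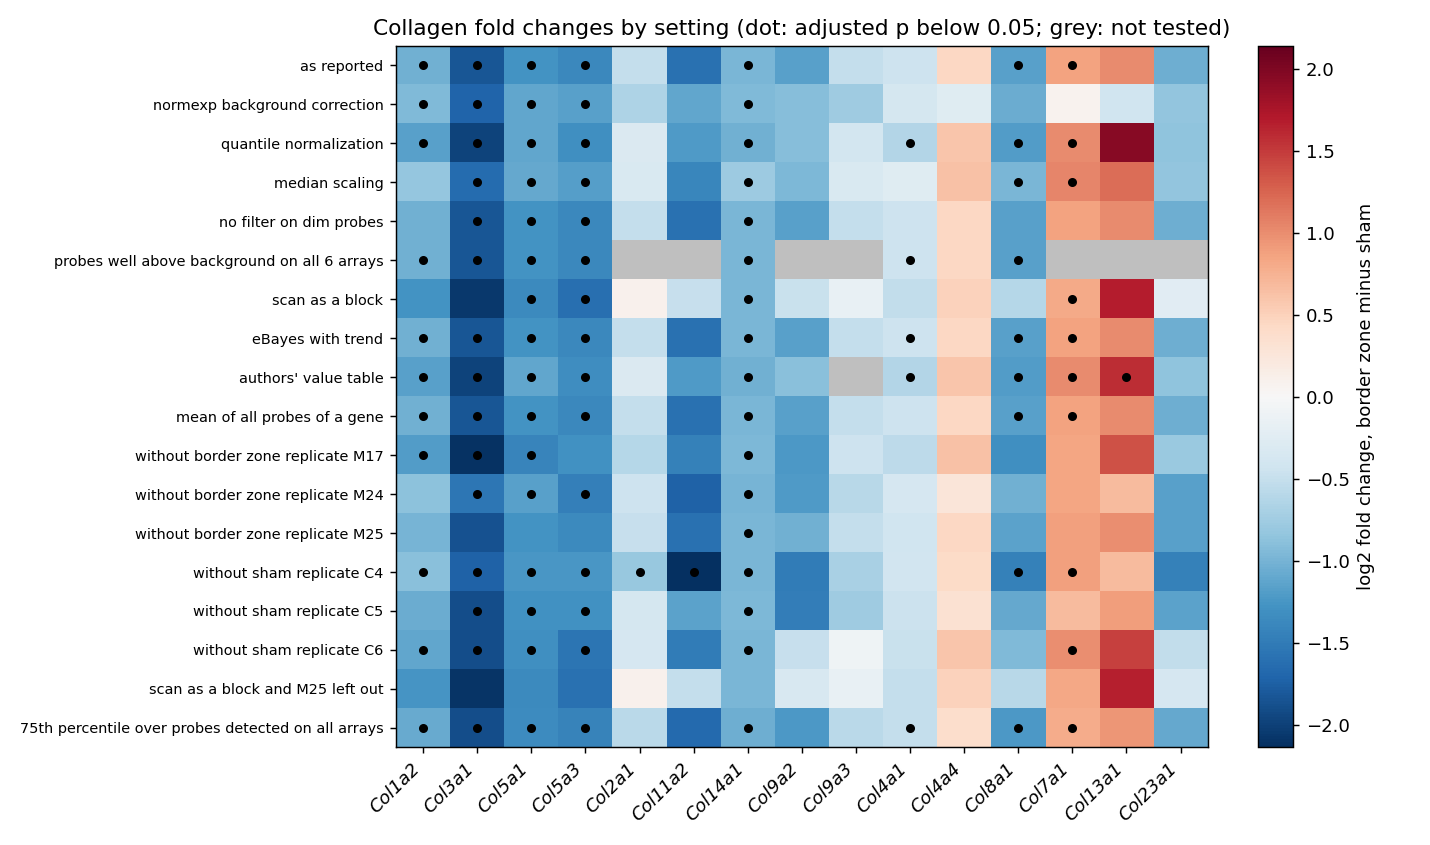
Log2 fold change (colour scale, border zone minus sham) of each collagen gene (columns) as reported and under 17 other settings (rows), with a dot where the adjusted p was below 0.05 and grey where the gene was not tested. Col14a1 has a dot in the reported fit and in 16 of the 17 other settings, Col8a1 in 8 of them, and Col7a1 in 9 of the 16 in which it was tested.

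Genes of collagen processing encode the enzymes and chaperones that modify, fold, trim and cross-link the chains. Of 35 listed, 25 had a probe and were tested, of which 2 were higher and 3 were lower, beside 9.01% higher and 10.3% lower over all tested probes, so the counts lie near those shares. The median log2 fold change was -0.02. Loxl1, a lysyl oxidase that oxidises lysines for cross-links, had levels of -0.07, -0.28 and -0.19 on M17, M24 and M25, against 2.02, 2.001 and 1.91 on C4, C5 and C6. The border-zone arrays all lay far below every sham array, and Loxl1 fell by 2.15 ± 0.11 on the log2 scale, or 4.45-fold (adjusted p = 0.000799; against C4 alone -2.20, adjusted p = 0.00998). Loxl2, a related oxidase, fell by 0.92 ± 0.13 (adjusted p = 0.00835), with -0.91 and an adjusted p of 0.0723 without M25.

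Serpinh1 encodes the chaperone of the triple helix in the endoplasmic reticulum. Its level was 3.56, 3.53 and 3.47 on M17, M24 and M25, against 4.29, 4.23 and 4.23 on C4, C5 and C6. It fell by 0.73 ± 0.10 on the log2 scale (adjusted p = 0.00864; against C4 alone -0.77, adjusted p = 0.0250), with -0.70 and an adjusted p of 0.0848 without M25, and -0.54 and 0.0631 with median scaling. P3h2, a prolyl 3-hydroxylase, rose by 0.67 ± 0.17 (adjusted p = 0.0431) and lost the call without M17, M24, M25, C4 or C5, at 0.59 to 0.77 with an adjusted p of 0.0509 to 0.177. It also lost the call against C4 alone (0.78, adjusted p = 0.0625), with normexp background correction (0.39, adjusted p = 0.141) and with no filter on dim probes (adjusted p = 0.0852). Other prolyl 3-hydroxylase family genes did not pass. P3h1 stood at 0.75 (adjusted p = 0.0636) with groups that did not overlap, P3h3 at -0.34 and P3h4 at -0.49. P4ha3, a catalytic subunit of prolyl 4-hydroxylase, had a log2 fold change of 0.75 ± 0.13 (adjusted p = 0.0156). It entered the test through the border zone alone, as only 1 of 3 sham arrays was well above background. With dim sham values raised to the lowest signal called well above background, P4ha3 had a fold of 0.70. The raised values of C5 and C6, -4.49 and -3.98, lay above every border-zone value, so this fold cannot decide whether P4ha3 rose. Against C4 alone, the sham array on which it was well above background, the change was 0.66. Its change was -0.45 with normexp background correction, and it lost the call without M17 (0.72), M24 (0.73) or M25 (0.80), with an adjusted p of 0.0674 to 0.0872.

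Receptors and turnover genes bind, cleave or recycle collagen. Of 22 listed, 19 had a probe and 16 were tested, of which 5 were higher and 2 were lower, beside 9.01% higher and 10.3% lower over all tested probes, with a median log2 fold change of 0.04. The largest change was in Timp1, an inhibitor of matrix metalloproteinases. Its level was 5.17, 5.61 and 5.45 on M17, M24 and M25, against 1.32, 1.69 and 1.62 on C4, C5 and C6. Timp1 rose by 3.87 ± 0.17 on the log2 scale, or 14.6-fold, with an adjusted p of 0.000649, and passed in each of the 17 other settings.

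The collagen-cleaving proteases that neutrophils carry were higher as well, from dim sham signals, and both entered the test through the border zone alone. Mmp8, the neutrophil collagenase, had levels of -3.95, -3.86 and -3.95 in the border zone, against -8.57, -6.08 and -6.01 in sham, where no array was well above background. Its adjusted p was 0.0365, and the fold was 2.35 with dim sham values raised to the lowest signal called well above background. Mmp9, a gelatinase that degrades denatured collagen, had levels of -1.14, -1.995 and -1.53 in the border zone, against -5.32, -4.59 and -3.18 in sham, with 2 of 3 sham arrays well above background. Its adjusted p was 0.0238, and the fold was 6.86 with the dim sham value raised in the same way. Both calls were lost without M17, M24, M25 or C5, with adjusted p of 0.0639 to 0.133 for Mmp8 and 0.0683 to 0.106 for Mmp9. With normexp background correction the changes were 0.08 for Mmp8 and 1.23 for Mmp9.

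Ddr2, a receptor tyrosine kinase for fibrillar collagen on fibroblasts, rose by 0.61 ± 0.15 (adjusted p = 0.0429), which was lost without M17, M24, M25, C5 or C6 (0.49 to 0.74, adjusted p of 0.0511 to 0.175), against C4 alone (0.60, adjusted p = 0.146), with normexp background correction (0.43, adjusted p = 0.109) and with no filter (adjusted p = 0.0861). Itgb1, the shared beta chain of the collagen-binding integrins, was the fifth gene of the list that rose, by 0.49 ± 0.12 (adjusted p = 0.0427). It is named after its value was seen, and lost the call without M17, M24, M25, C5 or C6 (0.41 to 0.55, adjusted p of 0.0886 to 0.179), against C4 alone (0.49, adjusted p = 0.104) and with quantile normalization (0.31, adjusted p = 0.121). The genes that fell were Fap, a fibroblast protease, by 1.58 ± 0.26 (adjusted p = 0.0137; without M24 -1.46 and adjusted p = 0.0590, without M25 -1.61 and adjusted p = 0.0758), and Pepd. Pepd, which splits proline dipeptides left from collagen breakdown, fell by 0.59 ± 0.11 (adjusted p = 0.0187) and lost the call without M17, M24, M25 or C5 (-0.62 to -0.57, adjusted p of 0.0611 to 0.127) and with median scaling (-0.40, adjusted p = 0.0963).

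Matrix proteins that bind collagen were measured for 11 of 25 listed genes, of which 1 was higher and 2 were lower, beside the same 9.01% and 10.3% over all tested probes, with a median log2 fold change of -0.35. Fn1, fibronectin, on which collagen fibrils assemble, had levels of 3.48, 3.33 and 3.37 on M17, M24 and M25, against 2.48, 2.496 and 2.64 on C4, C5 and C6. It rose by 0.85 ± 0.11 on the log2 scale (adjusted p = 0.00735), while fibrillar collagens with a call fell on the same arrays, and without M25 it was 0.86 with an adjusted p of 0.0673. Aspn, asporin, a small leucine-rich proteoglycan that binds type I collagen, had levels of 0.13, 0.06 and 0.08 in the border zone, against 1.85, 1.82 and 1.57 in sham. Aspn fell by 1.66 ± 0.12 (adjusted p = 0.00171) and kept the call without any 1 of the 6 arrays. Nid2, a basement membrane protein that binds type IV collagen, fell by 0.82 ± 0.17 (adjusted p = 0.0246), which was lost without M17, M24, M25 or C5 (-0.92 to -0.73, adjusted p of 0.0608 to 0.122), with median scaling (-0.63, adjusted p = 0.105) and with normexp background correction (-0.69, adjusted p = 0.0637).

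**Figure D4:**
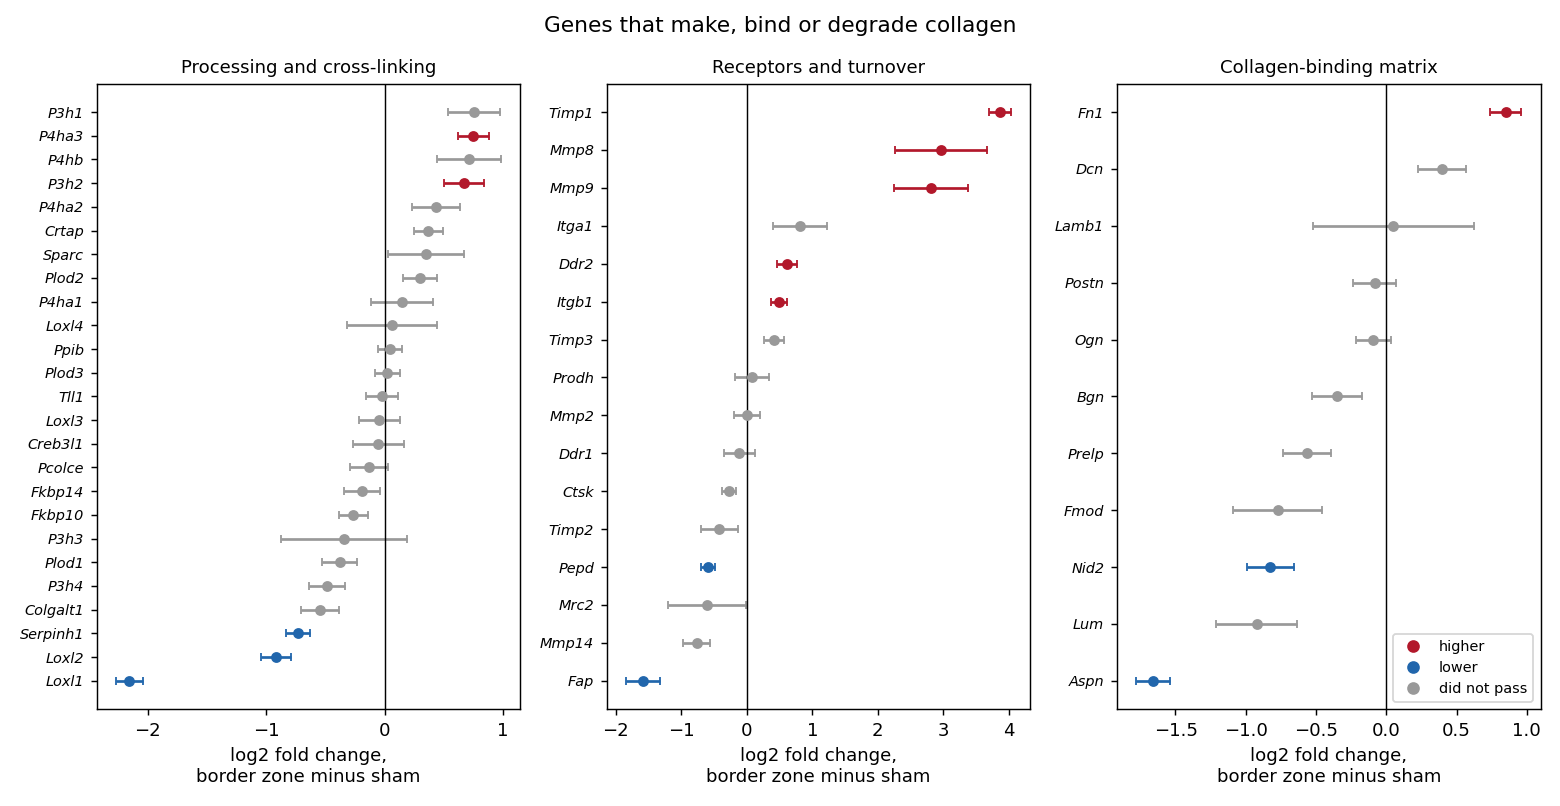
Log2 fold changes, border zone minus sham, with bars of 1 SE (limma, n = 3 arrays per group), of all tested genes in 3 lists, collagen processing (25 genes), collagen receptors and turnover (16 genes) and collagen-binding matrix (11 genes). Red genes were higher and blue genes lower at an adjusted p below 0.05; Timp1 lies farthest right at 3.87 and Loxl1 farthest left at -2.15.

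Calls among cell type markers went both ways, and are set beside 9.01% higher and 10.3% lower over all tested probes. Of 8 fibroblast markers with a probe, Tcf21 (1.84 ± 0.13) and Ddr2 were higher, Mfap5 was lower (-0.73) and 5 did not pass. Of those 5, Pdgfra (-0.67, adjusted p = 0.0688) and Lum (-0.92, adjusted p = 0.0758) lay wholly below sham, and Lum passed as lower against C4 alone (-1.47, adjusted p = 0.0398), whereas Dcn (0.40) and Gsn (0.37) lay above sham. The summed fibroblast level was 105 to 112 in the border zone and 81.7 to 100 in sham, and its brightest probes, Dcn and Gsn, weigh most in it. Of 7 leukocyte markers, S100a8, Csf3r, Lyz2 and Itgam were higher and none lower. Csf3r and Itgam entered the test through the border zone alone. With dim sham values raised to the lowest signal called well above background, the fold was 6.23 for Csf3r and 0.78 for Itgam. For Itgam the raised values of C5 and C6 lay above every border-zone value, so this fold cannot decide whether Itgam rose. Itgam was not well above background on any sham array and stood at -0.53 with normexp background correction, where Csf3r stood at 0.98 (adjusted p = 0.0950), while S100a8 passed in each setting. The summed leukocyte level was 55.3 to 57.4 in the border zone and 15.03 to 22.1 in sham. Its brightest probe, Lyz2, makes up most of that sum, and Ptprc, Cd68 and Cd3e did not pass. Of 4 endothelial markers, Emcn was lower and 3 did not pass. Of 6 smooth muscle and pericyte markers, Cspg4 was higher, Tagln was lower and 4 did not pass. Against C4 alone the calls of Emcn (-0.80, adjusted p = 0.115), Cspg4 (0.41, adjusted p = 0.0640), Tagln (-0.35, adjusted p = 0.105), Mfap5 (-0.57, adjusted p = 0.127) and Ddr2 were lost. Without each of M17, M25, C5 and C6 the calls of Emcn, Cspg4, Tagln and Mfap5 were lost as well (adjusted p of 0.0537 to 0.177). Of 5 tested markers of epithelium, mesothelium and epicardium, Krt19 (2.23), Epcam (0.96) and Cdh1 (0.80) were higher and 2 did not pass. Epcam and Cdh1 entered the test through the border zone alone, and stood at 0.04 and -0.39 with normexp background correction. Of 3 tested Schwann cell markers, Prx was higher (0.75, and 0.30 with normexp background correction) and 2 did not pass. The part of the leukocyte and other markers in the collagen values was not tested.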

How the data were processed

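Gene expression of 3 border-zone and 3 sham arrays was taken from the deposited spot intensity values, which per the file headers were made with Agilent Feature Extraction 11.0.1.1 by background subtraction and spatial detrending, with no normalization between arrays. The deposited flags (0 or 1 per spot, for control, outlier, saturated and well above background) were used as given, and no spot was saturated. The authors' value table, on the log2 scale with close to equal quantiles in all columns, was used as an alternative only.

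Processed signals were log2 transformed and centred on each array's 75th percentile, without control and outlier spots, and spots of a probe were averaged. The test took in 17930 of 24614 probes, those flagged well above background throughout the 3 arrays of either group, where a probe counts as flagged if more than 0.5 of its usable spots are. Of these, 5958 entered through the border zone alone and 36 through sham alone. All 15 collagen probes were well above background on the 3 border-zone arrays. Border zone and sham were compared by a two-sided test in limma 3.58.1, with lmFit followed by eBayes under R 4.3.3 and Benjamini-Hochberg adjustment over all tested probes and a threshold of 0.05. The block on scan leaves C4 as the sham value, with spread from M17, M24 and M25 only. The number of arrays limits the precision. The normexp alternative used median signals, since the files hold no mean signal column, and this was chosen after the files were read. It added an offset of 50 to the signals, which weighs most on dim probes. Changes of dim probes under normexp therefore cannot be put down to background removal alone. A fold with a dim group below background was set against the lowest signal called well above background on that array. Such a fold is not a strict minimum, as some probes above that signal were not called well above background.

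Probes were named through RefSeq accessions in the table of assembly GRCr8. The array headers name build rn4, and no array coordinates were used. Named genes were every collagen gene, those that passed and the chains known in heart in full, and up to 4 passing genes per direction of each pathway list by size of change. The members, the lists and the alternatives were chosen with earlier results of these data known. The script was tested on simulated data. Figures were drawn with Python 3.11.15, pandas 2.3.3 and matplotlib 3.10.9.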

Additional observations from a re-analysis of the deposited data

How the results depend on the processing

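The count of lower collagen genes (6) was 3 with scan as a block, 0 with scan as a block and M25 left out, and 1 to 8 with 1 array left out, where M25 gave 1. It was 4 to 7 in the other settings. The count of higher collagen genes (1) was 0 with normexp, with no filter on dim probes, with only probes well above background on all 6 arrays and with scan as a block and M25 left out, 2 with the authors' value table, and 0 to 1 with 1 array left out. The collagen median (-1.02) was -0.49 with scan as a block, -0.50 with that block and M25 left out, and -1.06 to -0.53 with 1 array left out, where C6 gave -0.53. Processing genes higher (2) numbered 0 with normexp and with the block and M25 left out, 1 with quantile normalization, with no filter and with the percentile over probes detected on all arrays, and 0 to 5 with 1 array left out. Processing genes lower (3) numbered 5 with probes detected on all 6 arrays and with the percentile over them, 0 with the block and M25 left out, and 1 to 5 with 1 array left out. Receptor and turnover genes higher (5) numbered 2 with normexp, 1 with no filter, 3 with probes detected on all 6 arrays, with scan as a block and with the percentile over detected probes, 2 with the block and M25 left out, and 1 to 6 with 1 array left out. Receptor and turnover genes lower (2) numbered 1 with median scaling and with no filter, 0 with the block and M25 left out, and 0 to 3 with 1 array left out. Probes passing in all (3460) numbered 2293 with normexp, 1826 with no filter, 77 with the block and M25 left out, and 509 to 7433 with 1 array left out, with 509 lacking M25 and 7433 lacking C4. With normexp the sign turned for P4ha3 (-0.45), Itgam (-0.53), Col13a1 (-0.42) and Col4a4 (-0.26), and for Col2a1 it turned with scan as a block (0.085) and with that block and M25 left out (0.10). The last 3 genes passed in neither fit. Fewer arrays or more probes tested follow from the construction of the array and filter settings, and the cause of the other changes was not tested. Over all probes, the median change (-0.03, log2) was -0.35 with normexp and 0.16 with median scaling, and the share of passing probes that were higher (46.7%) was 67.6% with median scaling and 36.7% with the percentile over detected probes. Of the values of single named genes, 479 kept direction and side of the threshold, 157 kept direction and lost the call, 8 gained one and 6 changed sign. No paired analysis was possible because the groups share no replicate numbers. The normexp column, the detected-probe percentile and the block with M25 left out were chosen after seeing the data. Limits are 3 arrays per group, 1 spot per collagen gene, background that sits higher on C5 and C6, and a scan block with no sham spread.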
